A study of Rattus norvegicus with 6 samples.

Results

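The control side of a knockdown experiment in cultured rat vascular smooth muscle cells is described here, from the 3 libraries of polyadenylated RNA titled Scr. They are 3 of the 6 libraries of the series and were chosen by their titles alone. The other libraries carry a knockdown of the long noncoding RNA MIAT and were left out of every value. The labels give the Scr libraries the tissue vessel, the cell type vascular smooth muscle and the genotype WT. The protocol text, which stands on every library of the series, describes a 72 h treatment with siRNAs, short double-stranded RNAs, together with antisense oligonucleotides, 50 nM in total. It does not say what the Scr cells received, so these libraries, named Scr control here, cannot be taken as untransfected cells. Strain, sex, age, vessel, passage number and serum are not given in the labels, and no label states whether each library had a culture of its own. The spread between libraries may therefore be technical.

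Vascular smooth muscle cells form the contractile layer of arteries and veins. In the vessel they carry large amounts of contractile protein and divide rarely. In culture they are known to lose part of the contractile set and to make matrix, growth factors and inflammatory proteins, a shift often described as a move from a contractile to a synthetic state. Matrix proteins such as collagens and fibronectin are built in the endoplasmic reticulum, secreted and crosslinked outside the cell, while receptors and ion channels set the tone of the cell from genes that are usually expressed at far lower levels.

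Levels are given as FPKM, the count of a gene divided by its length and by the library's total count, so that genes of unequal length can be compared. Values are listed for libraries 1, 2 and 3 in that order, and means carry the SD over the 3 libraries. The total counts were 17793811, 18381954 and 20121161. Of 18631 genes in the table, 11142 had a mean of at least 1 FPKM, 59.8% of the table. A mean of at least 10 FPKM was reached by 5378 genes, at least 100 by 676 and at least 1000 by 39. A total of 487 genes had no count in any of the 3 libraries. An approximate upper limit for a count of 0, set at 3 counts, is 0.169, 0.163 and 0.149 CPM (counts scaled by the library's total). Counting limits cover sampling error only. A count of 0 is reported as listed at 0, because Eif3e, a translation initiation subunit that cells use in general, had 1, 0 and 0 counts here.

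The transcriptome of the Scr control libraries was led by genes for matrix-associated and secreted proteins, by chemokines and by the actin cytoskeleton. Thbs1, which encodes the adhesive glycoprotein thrombospondin, had the highest mean, 5358, 5217 and 5090.3 FPKM (5222 ± 134 FPKM, SD, n = 3), and its libraries differed by no more than 1.05-fold. Ccl2, a chemokine that attracts monocytes, followed at 5771, 4232 and 3774 FPKM (4592 ± 1046 FPKM), with library 1 highest. Actb, cytoplasmic beta-actin, stood at 3737, 4124 and 3434 FPKM, Sparc, a collagen-binding matrix protein, at 2738, 3105 and 4186 FPKM, and Col1a1, a chain of type I collagen, at 2149.7, 2524 and 5174 FPKM. Sparc and Col1a1 were highest in library 3. Tnc, the matrix glycoprotein tenascin-C, ranked 6 at 3195, 2893 and 2386 FPKM (2825 ± 409 FPKM). The next places went to Tmsb4x, an actin-monomer binding peptide, Tagln, the smooth muscle actin-binding protein SM22, the intermediate filament gene Vim and the elongation factor Eef1a1.

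**Figure D1:**
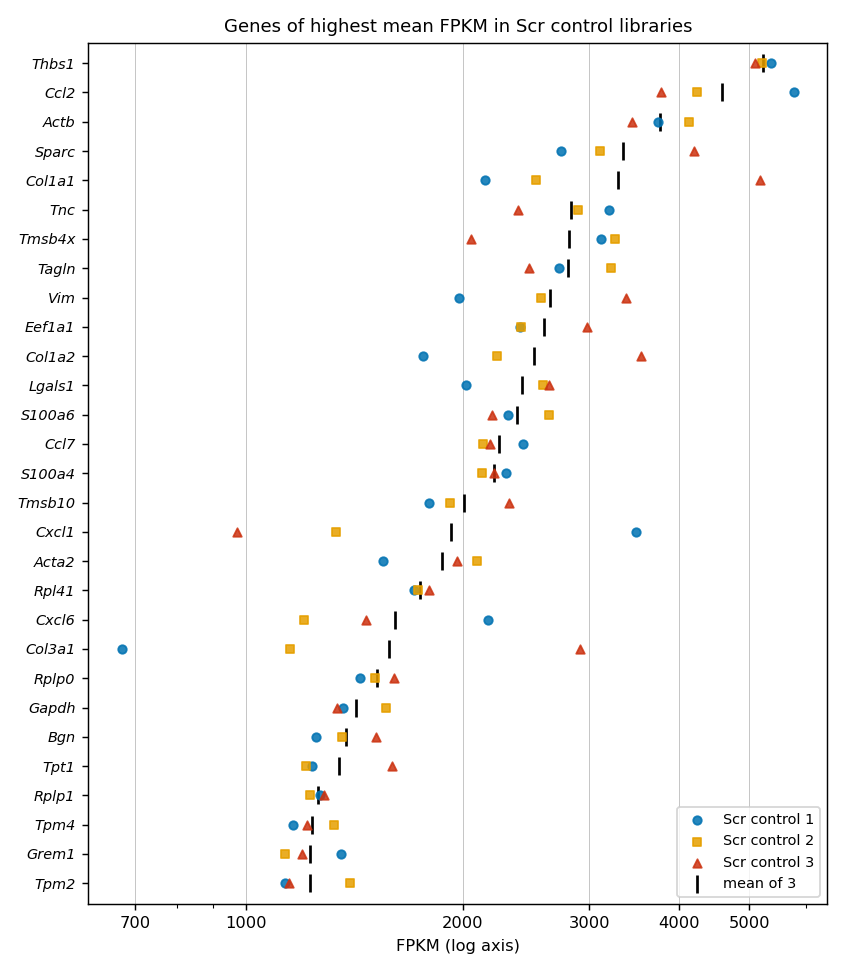
Level of 29 of the 30 genes of highest mean FPKM (log axis) in each Scr control library, with a black bar at the mean of 3. Genes such as Thbs1, Rpl41 and S100a4 lie within a narrow range, while Col3a1 runs from 671 in library 1 to 2915 in library 3 and Cxcl1 from 970.4 in library 3 to 3483 in library 1.

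By their lists, the 30 leading genes included 6 of the actin cytoskeleton (Actb, Tmsb4x, S100a6, S100a4, Tmsb10 and Tpm4), 4 chemokines (Ccl2, Ccl7, Cxcl1 and Cxcl6), 3 contractile genes (Tagln, Acta2 and Tpm2), 3 collagen chains (Col1a1, Col1a2 and Col3a1) and 3 matrix glycoproteins (Thbs1, Sparc and Tnc). They further held 3 ribosomal proteins, the translation genes Eef1a1 and Tpt1, the proteoglycan Bgn, the bone morphogenetic protein antagonist Grem1, the glycolytic enzyme Gapdh, Vim, and Lgals1, a galactose-binding lectin that was in no list. The order of neighbours within the 30 was not fixed by these data: of 29 neighbouring pairs, 0 had ranges that did not overlap. Genes farther apart in rank could keep their order in every library, as Thbs1 and Actb did. The last of them, Tpm2, had a mean of 1225 FPKM, and the first outside, the ribosomal protein gene Rps29, had 1222 FPKM. A place among the 30 in every library was held by 25 of the 30 genes, and a place among the 100 highest in every library by 85 of 100.

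The leading genes took a moderate share of the whole. The 10 highest held 8.06%, 8.13% and 8.63% of the summed FPKM, the 30 highest 16.8% ± 0.659 (SD, n = 3) and the 100 highest 29.2%, 29.95% and 31.4%. Library 3 was the most concentrated for both the 10 and the 100. It took 368 genes to reach 50% of the summed FPKM and 4248 genes to reach 90%.

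Ranking by counts instead of FPKM gave another picture, because long transcripts collect more counts. Tnc then led with 2.13% of all counts, from 427927, 400318 and 361372 counts, ahead of Thbs1 with 2.05% and Col1a1 with 1.91%. Col1a2, Fn1, Col3a1 and Col12a1 came next, followed by Actb, Sparc and Flna. Flna, the actin crosslinker filamin A, ranked 86 by FPKM and 10 by counts. Only 16 genes were among the 30 highest on both scales, and the median transcript length of the 30 was 1415 bases by FPKM and 4192 bases by counts. Of the FPKM list, 12 genes were shorter than 1000 bases, against 1 of the count list.

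**Figure D2:**
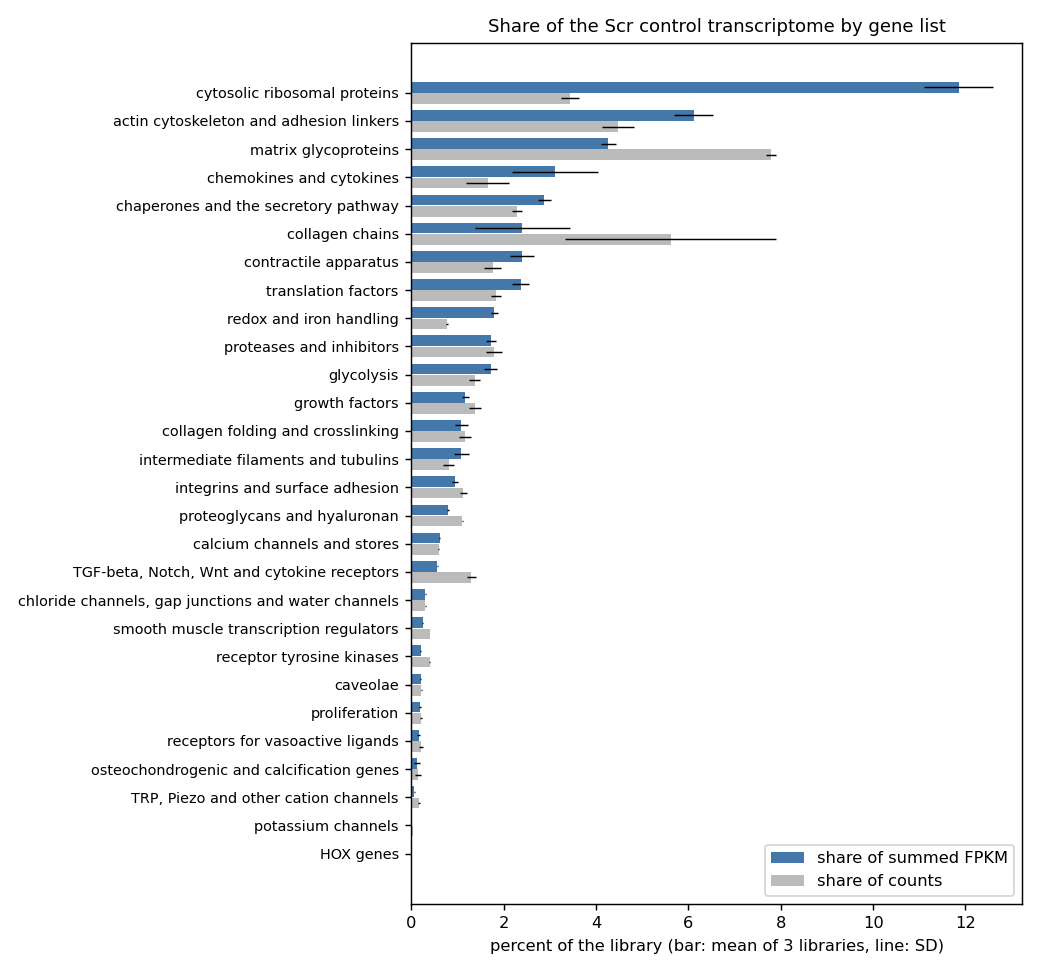
Share of each gene list in the Scr control libraries, in percent of summed FPKM (blue) and percent of counts (grey), bars at the mean of 3 libraries and lines for the SD. Cytosolic ribosomal proteins lead by FPKM (11.9%) and drop to 3.44% by counts, while matrix glycoproteins (4.27% and 7.79%) and collagen chains (2.41% and 5.62%) rank higher by counts.

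Contractile and actin genes together made up 8.50% ± 0.660 of the summed FPKM (SD, n = 3), at 8.42%, 9.20% and 7.89%, with 80 of 87 genes at 1 FPKM or more. Acta2, the smooth muscle alpha-actin, was measured at 1548, 2093 and 1965 FPKM (1869 ± 285 FPKM) and ranked 18. Library 1 was the lowest for Acta2, and its highest value, in library 2, was 1.35-fold the lowest. Tagln had 2719, 3217 and 2472 FPKM, highest in library 2. Tpm2, a tropomyosin that lies along the actin filament, had 1225 ± 149 FPKM, and Myl9, the regulatory light chain whose phosphorylation triggers contraction, 812, 906 and 528 FPKM, lowest in library 3. Myl6, the essential light chain, stood at 708 ± 36.5 FPKM and Csrp1, a cysteine-rich LIM protein of smooth muscle, at 574 ± 105 FPKM. Flna varied little, at 617, 696 and 643 FPKM (652 ± 40.2 FPKM).

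The other customary definers of smooth muscle spread over a wide range of levels. Those named next were chosen after their values were seen. Cnn1, calponin, was at 284, 362 and 289 FPKM and Cald1, caldesmon, at 538, 605 and 529 FPKM, both highest in library 2. Lmod1, which nucleates actin filaments in smooth muscle, was at 37.6, 38.5 and 44.97 FPKM. Myh11, the smooth muscle myosin heavy chain that marks the mature contractile cell, had 25.8, 40.2 and 26.5 FPKM (30.8 ± 8.16 FPKM), from 3232, 5218 and 3760 counts. In each library Acta2 exceeded Myh11 many times over on the FPKM scale, by 60.1-fold, 52.0-fold and 74.2-fold. Smtn, smoothelin, stood at 22.9, 24.0 and 21.9 FPKM, and Mylk, the kinase that phosphorylates Myl9, at 9.19, 13.5 and 7.41 FPKM. Des, the muscle intermediate filament desmin, was near the limit of detection at 0.130, 0.326 and 0.183 FPKM, from 5, 13 and 8 counts. Actin reads can be shared between near-identical family members, which the deposited tables do not resolve, and this touches Acta2, Actg2, Actb and Actg1.

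The contractile list held 36 genes, of which 30 reached 1 FPKM, 25 reached 10 FPKM and 9 reached 100 FPKM. Of the 25, 17 were highest in library 2 (17 also after TMM scaling, a normalization that sets libraries to a common trimmed mean). The actin list was more complete, with 50 of 51 genes at 1 FPKM or more and 33 at 100 FPKM or more, and 28 of 48 genes highest in library 2 (29 after TMM scaling). Across all 5378 genes of at least 10 FPKM, 30.4% were highest in library 2, or 28.4% after TMM scaling. In these bulk libraries fewer cells of a type and less RNA per cell cannot be told apart.

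Regulators of the smooth muscle programme were expressed at levels well below those of the leading contractile genes. Prrx1, a mesenchymal homeobox factor, led at 273, 276 and 226 FPKM, followed by Twist2, a mesenchymal factor, at 119, 69.4 and 82.1 FPKM. Yap1 and Tead1, partners of the Hippo pathway, had 66.9 ± 7.31 FPKM and 50.8 ± 4.96 FPKM. Sox4 was at 31.8, 32.3 and 73.9 FPKM, with library 3 above the other two. Srf, the serum response factor that binds CArG boxes, and its coactivators Mrtfa and Myocd were looked at after their values were seen. Srf had 33.3, 30.5 and 18.2 FPKM and Mrtfa 8.44, 9.51 and 8.73 FPKM. Myocd, the smooth muscle and heart coactivator myocardin, was only at 2.12, 0.661 and 0.598 FPKM, from 323, 104 and 103 counts, so that the Mrtfa to Myocd ratio ran from 3.98 in library 1 to 14.4 and 14.6 in libraries 2 and 3. Of 57 listed regulators 46 reached 1 FPKM, and Meox1 was listed at 0.

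Positional HOX genes, homeobox factors that keep a record of a cell's place along the body axis, were detected at low levels, 11 of 35 at 1 FPKM or more and 0 at 10 FPKM or more. Hoxd8 was the highest at 9.24, 8.71 and 10.95 FPKM. Hoxb2 followed at 5.68, 6.86 and 5.69 FPKM, Hoxb4 at 3.97, 5.44 and 2.53 FPKM, Hoxd9 at 3.80, 2.82 and 5.23 FPKM and Hoxa5 at 2.16, 3.50 and 0.812 FPKM. The ranges of the last 3 overlapped. Hoxa13 and Hoxd12, members of the posterior end of their clusters, were listed at 0.

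Matrix genes, counted as collagens, glycoproteins and proteoglycans, held 7.47% ± 1.17 of the summed FPKM (SD, n = 3), at 6.58%, 7.02% and 8.79%, and 14.5% ± 2.20 of all counts. Of 149 matrix genes, 104 reached 1 FPKM (69.8%, against 59.8% of the whole table) and 37 reached 100 FPKM. Col1a1 and Col1a2, the chains of type I collagen, stood at 2149.7, 2524 and 5174 FPKM and 1759, 2235 and 3535 FPKM. The ratio of Col1a1 to Col1a2 was 1.22, 1.13 and 1.46 on the FPKM scale. Col3a1, the fibrillar collagen of elastic vessels, had 671, 1151 and 2915 FPKM, a 4.34-fold range, and its mean of 1579 FPKM became 911 FPKM without library 3. Col12a1, a fibril-associated chain, was at 531, 432 and 938 FPKM and Col5a2, which regulates fibril width, at 479, 533 and 686 FPKM. For each of these 5 chains library 3 was the highest.

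Across the collagen list, 24 of 43 chains reached 1 FPKM and 17 reached 10 FPKM. Of these 17, 13 were highest in library 3 under both scalings, and the median log2 difference of library 3 from library 1 was 0.52 (0.64 after TMM scaling). Over all 5378 genes that median was -0.06 (0.06 after TMM scaling), and 29.8% of genes were highest in library 3 (46.6% after TMM scaling). The other 4 chains, named after their values were seen, were highest in library 1 and lowest in library 3. Col4a1 and Col4a2, chains of basement membrane collagen, had 278, 252 and 213 FPKM and 219, 201 and 181 FPKM, while Col4a5, another such chain, was highest in library 3 at 9.34, 8.35 and 14.8 FPKM. Col8a1 had 153, 138 and 121 FPKM and Col15a1, a chain of the basement membrane zone, 219, 124 and 56.6 FPKM. The genes that fold, trim and crosslink collagen were also mostly highest in library 3, 19 of 25 (22 after TMM scaling), with a median log2 difference of 0.29 (0.41). All 28 genes of that list reached 1 FPKM. Markers of other mesenchymal cells moved partly along: 5 of 7 fibroblast markers of at least 10 FPKM were highest in library 3, though their list of 17 summed to 1277, 1190 and 1271 FPKM, and 11 pericyte markers summed to 57.1, 98.1 and 103 FPKM, with Notch3 and Rgs5 at means of 0.141 FPKM and 0.0996 FPKM. Their part in the collagen values was not tested. Serpinh1, the collagen chaperone HSP47, had 592, 696 and 853 FPKM, P4hb, a subunit of prolyl hydroxylase, 624, 703 and 693 FPKM and Pcolce, which enhances the trimming of procollagen, 539, 569.7 and 753 FPKM. Ppib, a prolyl isomerase, and Lox, the crosslinking enzyme lysyl oxidase, had 335 ± 8.53 FPKM and 319.7 ± 41.3 FPKM.

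Among the glycoproteins, Fn1, fibronectin, was at 987, 1136 and 1179.7 FPKM and Ccn2, connective tissue growth factor, at 491, 591 and 637 FPKM, each lowest in library 1. Thbs2, a relative of Thbs1, had 307, 373 and 551 FPKM, and the Thbs1 to Thbs2 ratio was 17.5, 13.99 and 9.24. Nid1, which links laminin to collagen in basement membranes, varied little at 396, 427 and 395 FPKM. The small proteoglycans Bgn, Dcn and Lum, which bind collagen fibrils, had 1376 ± 134 FPKM, 617 ± 114 FPKM and 230.1 ± 8.45 FPKM, and Dcn was highest in library 1 at 729 FPKM. Vcan, the large proteoglycan versican, had 194 ± 15.7 FPKM, and Cd44, the hyaluronan receptor, 148, 132 and 71.6 FPKM. Eln, elastin, the protein of the elastic lamellae and a product of smooth muscle in the developing artery, was named after its values were seen: it had only 0.454, 0.227 and 0.111 FPKM, from 29, 15 and 8 counts.

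Among the genes for secreted proteases and their inhibitors, Timp1, a metalloproteinase inhibitor, stood at 974, 1153 and 702 FPKM. Mmp2, the gelatinase of cultured mesenchymal cells, was at 609.7, 495 and 716 FPKM. Htra1, a serine protease, and Serpinf1, a secreted serpin, had 569.5 ± 100.3 FPKM and 424 ± 115 FPKM. Of 52 genes, 41 reached 1 FPKM, and Mmp8 was listed at 0. Growth factors and their binding proteins were led by Grem1 (1354, 1132 and 1195 FPKM) and Fstl1 (771, 876 and 973 FPKM), secreted proteins that bind ligands of the TGF-beta superfamily. Igfbp7 had 212 ± 12.8 FPKM, Fgf7, a growth factor for epithelia, 264, 162 and 153 FPKM and Adm, the vasodilator adrenomedullin, 264, 171 and 128 FPKM, the last 2 highest in library 1. Of 93 genes, 67 reached 1 FPKM.

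Of 64 chemokine and cytokine genes, 34 reached 1 FPKM (53.1%, near the 59.8% of the table) and 23 reached 10 FPKM. The 4 highest, Ccl2, Ccl7, Cxcl1 and Cxcl6, had means of 4592, 2247, 1928 and 1612 FPKM. The list held 3.11% ± 0.936 of the summed FPKM (SD, n = 3), at 4.18%, 2.69% and 2.46%. By counts, which are not divided by length, the share was 1.65%. Besides Ccl2, the leading members were Ccl7, a neighbouring monocyte chemokine, at 2427, 2132 and 2181 FPKM, Cxcl1, a neutrophil chemokine, at 3483, 1332 and 970.4 FPKM, and Cxcl6, at 2166, 1203 and 1469 FPKM. Il6, the cytokine interleukin-6, had 895, 498 and 213 FPKM. Ccl7 was nearly level over the libraries, whereas Cxcl1 and Il6 were highest in library 1 and lowest in library 3. Without library 1 the mean of Cxcl1 went from 1928 FPKM to 1151 FPKM and that of Il6 from 535 FPKM to 355 FPKM. Reads of Cxcl1, Cxcl2 and Cxcl3, which are close relatives, may be split between them by the authors' counting.

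Of 23 chemokine and cytokine genes of at least 10 FPKM, 19 were highest in library 1 (17 after TMM scaling), where 39.8% of all genes of that level were (25.1% after TMM scaling). Their median log2 difference of library 3 from library 1 was -1.19 (-1.07 after TMM scaling), and their median coefficient of variation, the SD as a percent of the mean, was 55.3% against 8.16% over all 5378 genes. Cxcl12, a chemokine that mesenchymal cells make constitutively, was nearly level, at 281, 307 and 293 FPKM, and Il33, an alarmin stored in the nucleus, had a range of 1.35-fold, at 264, 247 and 196 FPKM. Both, with Ccl20 and Lif, were named after their values were seen. Ccl20 had 233, 197 and 61.3 FPKM and Lif, a cytokine of the interleukin-6 family, 118, 67.5 and 16.4 FPKM, a 7.19-fold range. Ccl19, Il4 and Tnfsf11 were listed at 0. The summed level of 21 leukocyte markers also fell from library 1 to library 3, at 25.9, 20.1 and 14.3 FPKM. Of the 21, 4 reached 1 FPKM, and Ptprc, the common leukocyte antigen, was listed at 0 in all 3 libraries. Cd68 fell, at 8.66, 5.67 and 3.40 FPKM. Cd14, the highest at a mean of 8.44 FPKM, was nearly level at 8.71, 8.36 and 8.26 FPKM. The part of these markers in the chemokine values was not tested.

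**Figure D3:**
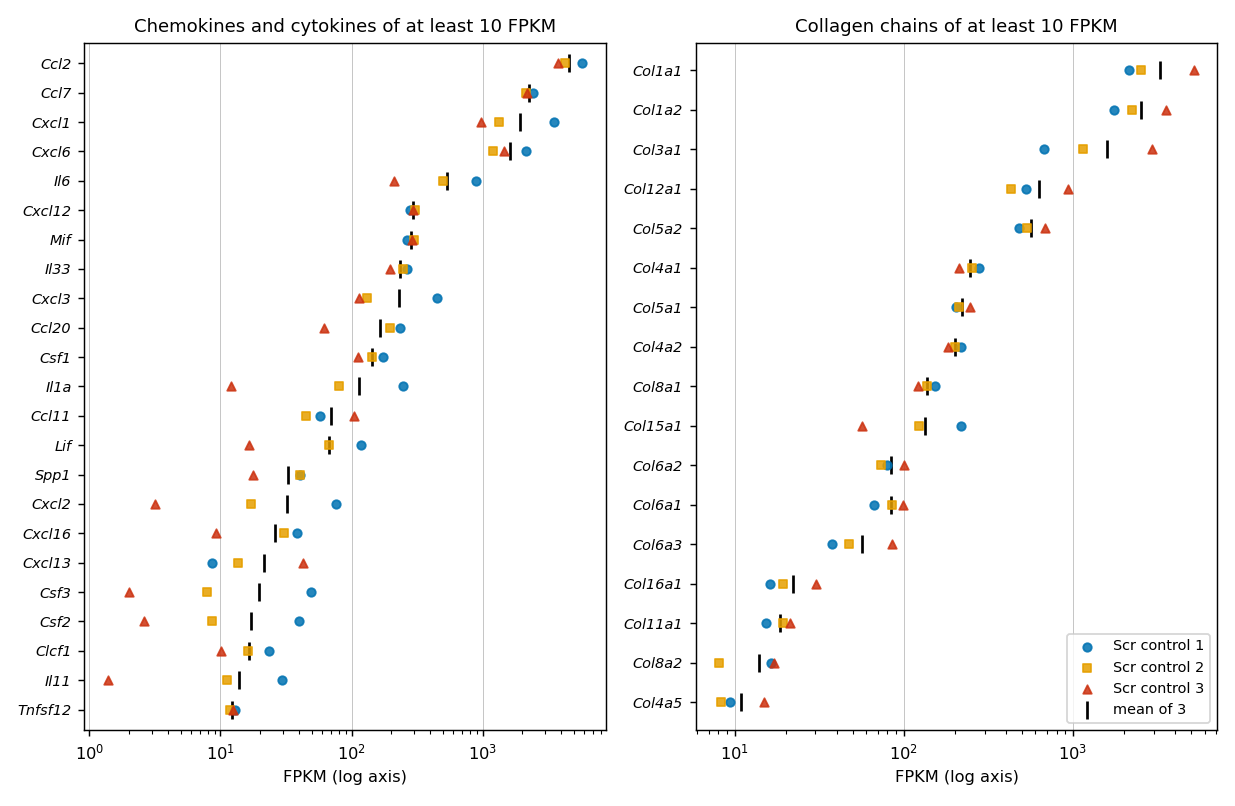
Level (FPKM, log axis) of the chemokine and cytokine genes (left) and the collagen chains (right) of at least 10 FPKM in each Scr control library, with a bar at the mean of 3. On the left, library 1 is highest for 19 of 23 genes, and on the right library 3 is highest for 13 of 17.

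The start regions of the chemokine genes were read for a motif that inflammatory genes are known for, the kappaB motif bound by NF-kappaB factors. Sequences came from the RefSeq promoter table of the rat assembly GRCr8, since the sources used here name no build for the deposited tables. The 250 bases before each start were searched on both strands. Of 34 expressed chemokine and cytokine genes, 22 had an entry, with 24 windows, and 8 of the 24 windows held the motif (33.3%), against 2117 of 33469 windows of the whole table (6.33%). The 8 genes were Ccl7, Ccl20, Cxcl1, Cxcl2, Cxcl6, Cxcl10, Il6 and Tslp. The windows of the other 12 genes, among them Ccl2, Cxcl3, Csf3 and Lif, were not analysed here. The shares were 16.7% of 48 windows of the actin list, 10.5% of 19 of the collagen list and 7.69% of 26 of the contractile list. The motif and the genes were chosen after the levels were seen, and a match is a run of letters, not evidence of binding.

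The 120 bases before the start are printed for the 6 most abundant of these 8 genes, 5′ to 3′ on the gene's strand, so that the letters and place of the motif can be compared. Capitals mark the kappaB motif. The windows are chr14:17479322-17479441 for Cxcl1, chr14:17467256-17467375 for Cxcl2, chr14:17596418-17596537 for Cxcl6 and chr4:5894576-5894695 for Il6, all on the minus strand, and chr9:91837039-91837158 for Ccl20 and chr10:67513975-67514094 for Ccl7 on the plus strand of GRCr8.
Cxcl1: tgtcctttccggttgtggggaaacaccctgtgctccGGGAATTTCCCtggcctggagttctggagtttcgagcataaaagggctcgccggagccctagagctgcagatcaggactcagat
Cxcl2: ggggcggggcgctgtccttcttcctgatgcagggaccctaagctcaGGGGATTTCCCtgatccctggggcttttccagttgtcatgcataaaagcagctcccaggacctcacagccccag
Cxcl6: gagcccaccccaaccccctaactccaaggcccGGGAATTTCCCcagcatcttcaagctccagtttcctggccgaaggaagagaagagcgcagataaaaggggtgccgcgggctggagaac
Il6: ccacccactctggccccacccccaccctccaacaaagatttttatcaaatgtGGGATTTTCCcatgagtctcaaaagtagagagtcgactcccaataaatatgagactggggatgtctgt
Ccl20: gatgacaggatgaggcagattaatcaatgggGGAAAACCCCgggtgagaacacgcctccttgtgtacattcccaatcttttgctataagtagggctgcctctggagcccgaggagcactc
Ccl7: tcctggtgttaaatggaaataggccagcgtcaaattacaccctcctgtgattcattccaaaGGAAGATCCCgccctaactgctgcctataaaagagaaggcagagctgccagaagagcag
In Cxcl1, Cxcl2 and Cxcl6, neighbours on chromosome 14, the capitals cover 2 overlapping matches, at 84 to 74, 74 to 64 and 88 to 78 bases before the start. In Il6 the motif lay 68 to 59 bases before the start, in Ccl20 89 to 80 and in Ccl7 59 to 50. Among the 6, Cxcl2 had the widest range, 75.8, 16.95 and 3.15 FPKM, and Ccl7 the narrowest.

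The AP-1 motif (TGACTCA or TGAGTCA) was found in 3 of the same 24 windows (12.5%, genes Cxcl10, Il1a and Il11), against 4.05% of all windows, and in none of the 6 printed genes, so it overlapped no printed kappaB match. The CArG box, the site of serum response factor, was found in 3 of 26 windows of the contractile list (11.5%, genes Fhl1 and Fhl2), in 1 of 48 of the actin list (2.08%, Actg1) and in 1.497% of all windows. Actg1, cytoplasmic gamma-actin at 1179, 1195 and 946 FPKM, is printed as the gene of the actin list with a match, which lies 90 to 81 bases before the start and is in capitals. The windows of 7 expressed contractile genes, Tagln, Myl9 and Myh11 among them, and of 9 expressed actin genes, Actb among them, were not analysed here. The Actg1 window is chr10:106120952-106121071 on the minus strand of GRCr8.
Actg1: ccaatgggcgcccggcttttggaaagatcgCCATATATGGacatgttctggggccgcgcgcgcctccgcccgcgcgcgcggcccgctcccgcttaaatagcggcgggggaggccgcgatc

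The 201 listed receptors, of 18631 genes in the table, held 0.928% ± 0.0386 of the summed FPKM (SD, n = 3) and 1.90% of counts. Of these receptors 119 reached 1 FPKM, a share of 59.2% that was near the 59.8% of the whole table. Among receptors for vasoactive ligands, 32 of 74 reached 1 FPKM and 12 reached 10 FPKM. Ednrb, the endothelin receptor type B, led at 266, 157 and 86.3 FPKM, a 3.09-fold range with library 1 highest. Its relative Ednra, the type A receptor through which endothelin is known to contract vascular muscle, was named after its values were seen and had 0.395, 0.223 and 0.407 FPKM, from 36, 21 and 42 counts. On the FPKM scale Ednrb exceeded Ednra by 675-fold, 702-fold and 212-fold. F2r, the thrombin receptor, was at 111, 138 and 108 FPKM and Ramp3, an accessory protein of the adrenomedullin receptor, at 88.7, 88.5 and 45.5 FPKM. Avpr1a, the vasopressin receptor, S1pr2, a sphingosine phosphate receptor, and Adora2b, an adenosine receptor, had 50.9 ± 7.62 FPKM, 35.8 ± 0.851 FPKM and 35.5 ± 10.02 FPKM. Agtr1a, the angiotensin receptor, also named after its values were seen, was at 0.953, 1.34 and 0.883 FPKM. Gucy1a1, a subunit of the nitric oxide receptor, Ptger2, P2ry14, Gper1 and Cysltr1 were listed at 0.

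Of 12 vasoactive receptors of at least 10 FPKM, 7 (58.3%) were highest in library 1 and 6 (50.0%) after TMM scaling, beside 39.8% and 25.1% of all 5378 genes. Their median log2 difference of library 3 from library 1 was -0.67 (-0.55 after TMM scaling). Of 14 receptor tyrosine kinases, 4, 5 and 5 were highest in libraries 1, 2 and 3 (4, 4 and 6 after TMM scaling), with a median log2 difference of -0.01 (0.11). The difference between these lists was not tested. Axl, the receptor for the growth factor Gas6, had 182, 209.9 and 159 FPKM, and Pdgfrb, the platelet-derived growth factor receptor that marks mural cells, 122, 125 and 117 FPKM (121 ± 4.43 FPKM). Pdgfra, its relative known from fibroblasts, had 52.8, 56.8 and 82.2 FPKM, so that the Pdgfrb to Pdgfra ratio was 2.30, 2.21 and 1.42. Fgfr1, a fibroblast growth factor receptor, and the Wnt-related receptors Ptk7 and Ryk had 97.05 ± 10.9 FPKM, 89.05 ± 10.2 FPKM and 83.3 ± 5.02 FPKM. Of 51 receptor tyrosine kinases, 27 reached 1 FPKM, and Tie1, an endothelial receptor, was listed at 0.

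The receptors of the TGF-beta, Notch, Wnt and cytokine families were the most complete of the receptor lists, with 60 of 76 at 1 FPKM or more. Tnfrsf12a, the receptor for the cytokine TWEAK, led at 368, 311 and 175 FPKM, lowest in library 3. Lrp1, a large scavenger receptor, stood at 194, 170.3 and 237 FPKM, and Il1rl1, the receptor for interleukin-33, at 134, 197 and 256 FPKM, lowest in library 1. Fzd1, a Wnt receptor, Il1r1, the interleukin-1 receptor, and Ifngr1, a chain of the interferon-gamma receptor, had 147 ± 18.0 FPKM, 105 ± 16.3 FPKM and 97.4 ± 1.16 FPKM. Notch3, the Notch receptor known from arterial smooth muscle and pericytes, was named after its values were seen and had 0.182, 0.142 and 0.0990 FPKM, from 26, 21 and 16 counts. Of the 50 genes of integrins and surface adhesion, 34 reached 1 FPKM. Itgb1, the common beta subunit of integrins, had 510.0, 533 and 557 FPKM, and Cd63, Cd81 and Cd151, membrane-spanning tetraspanins, 602 ± 61.6 FPKM, 375 ± 28.8 FPKM and 326 ± 49.7 FPKM. Thy1, a surface glycoprotein of mesenchymal cells, had 363 ± 54.02 FPKM. The caveolar coat genes were led by Cav1 at 389.8, 435 and 384 FPKM, and 8 of 10 genes of that list reached 1 FPKM.

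**Figure D4:**
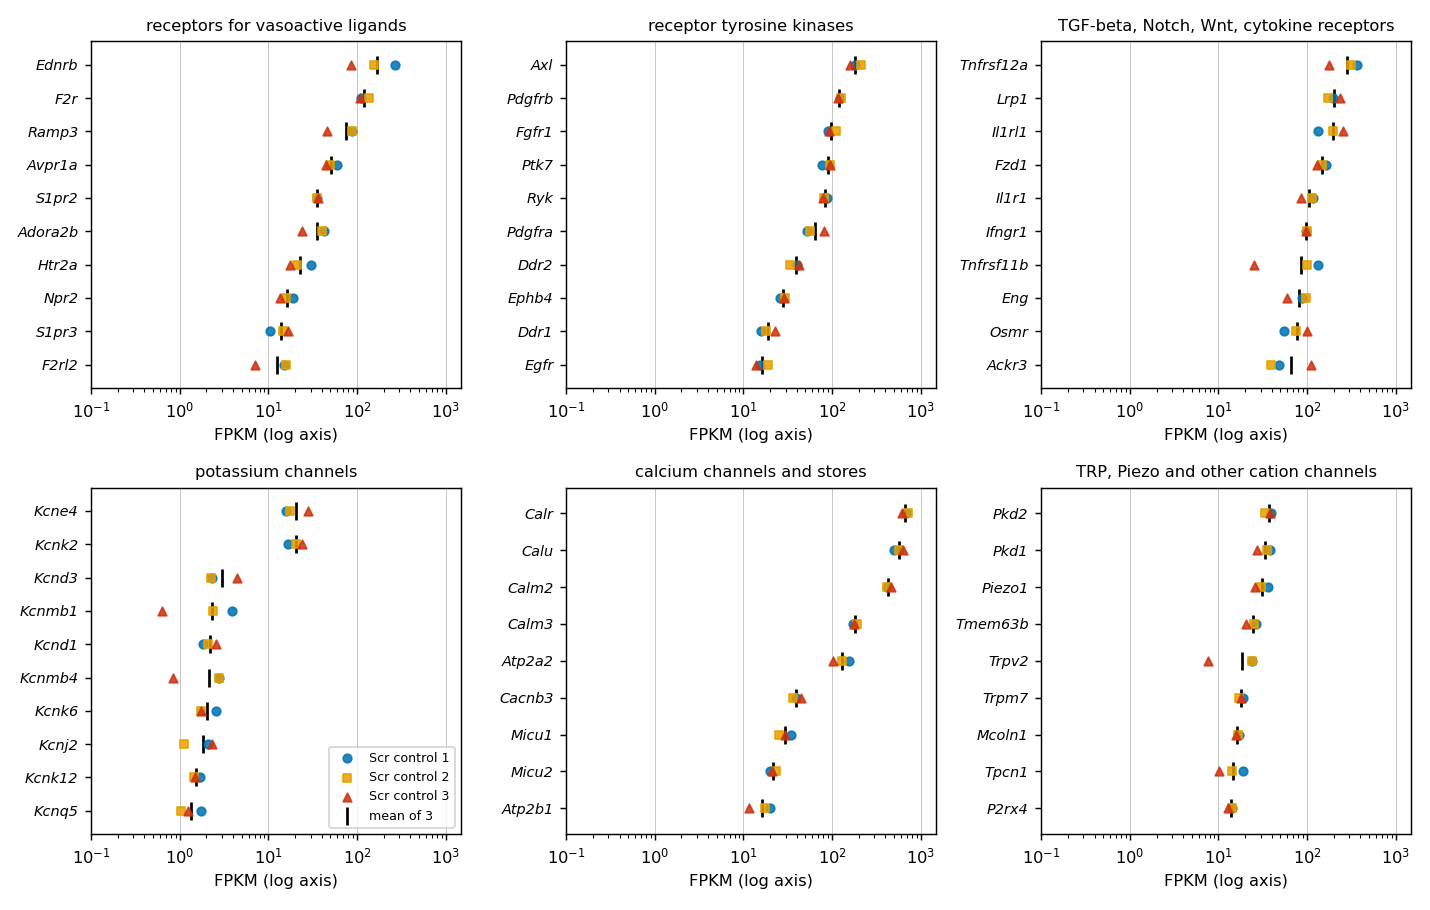
Level (FPKM, the same log axis in each panel) of 9 or 10 of the 10 highest genes of 3 receptor lists and 3 channel lists in each Scr control library, with a bar at the mean of 3. The potassium channel genes lie lowest, with 2 genes at a mean of 20.4 and 20.3 FPKM and the rest of the 10 at a mean of 3.00 or lower, whereas store and calmodulin genes of the calcium list reach 674 FPKM (Calr).

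Ion channel genes were at 1 FPKM or more in a smaller share than the table as a whole, 81 of 255 genes (31.8%, against 59.8%), and held 0.998% ± 0.0126 of the summed FPKM (SD, n = 3). Potassium channels were the sparsest list, with 11 of 84 at 1 FPKM or more and 2 at 10 FPKM or more. Those 2 were Kcne4, an accessory subunit of voltage-gated channels, at 16.01, 17.4 and 27.9 FPKM, and Kcnk2, a mechanosensitive leak channel, at 16.5, 20.3 and 23.98 FPKM, both highest in library 3 under both scalings. Kcnd3 and Kcnd1, voltage-gated channels, had 2.32, 2.26 and 4.42 FPKM and 1.83, 2.11 and 2.59 FPKM. Kcnmb1 and Kcnmb4, accessory subunits of the calcium-activated BK channel, had 3.87, 2.38 and 0.635 FPKM and 2.78, 2.80 and 0.835 FPKM, both lowest in library 3. The mean of Kcnmb1 went from 2.30 FPKM to 1.51 FPKM without library 1. Kcnma1, the pore subunit of that channel and named after its values were seen, had only 0.0517, 0.0100 and 0.0457 FPKM, from 5, 1 and 5 counts. Kcnj3 and Kcnj16 were listed at 0.

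In the calcium list, genes of the stores and of calcium binding led, not the channels. Calr and Calu, calcium-binding proteins of the endoplasmic reticulum, had 674 ± 53.3 FPKM and 568 ± 61.1 FPKM. The calmodulin genes Calm2 and Calm3 had 431 ± 22.8 FPKM and 180.4 ± 10.1 FPKM. Atp2a2, the SERCA pump that refills the store, was at 155, 129 and 102 FPKM, highest in library 1. Cacna1c, the pore of the L-type channel through which calcium enters contracting smooth muscle, was named after its values were seen and had 7.98, 7.16 and 8.35 FPKM (7.83 ± 0.605 FPKM). Among other cation channels, 18 of 61 reached 1 FPKM. Pkd2 and Pkd1, the polycystins, had 39.1, 33.4 and 38.1 FPKM and 38.3, 35.02 and 27.5 FPKM, and Piezo1, the stretch-gated channel, 36.2, 30.3 and 26.03 FPKM. Tmem63b, a mechanosensitive channel, had 24.2 ± 3.31 FPKM, and Trpv2, a calcium-permeable TRP channel, 23.7, 23.9 and 7.60 FPKM, with library 3 well below the others. Trpc2 and Pkd2l1 were listed at 0.

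Gap junction and anion channel genes were higher. Gja1, a connexin and the main gap junction protein of cultured smooth muscle, had 445, 322 and 393 FPKM (387 ± 61.7 FPKM), lowest in library 2. Clic4 and Clic1, intracellular chloride channel proteins, had 212 ± 12.6 FPKM and 138 ± 15.6 FPKM, and the mitochondrial porins Vdac1, Vdac3 and Vdac2 102 ± 12.04 FPKM, 97.7 ± 6.32 FPKM and 82.3 ± 3.72 FPKM. In this list 27 of 62 genes reached 1 FPKM. Ano1, the calcium-activated chloride channel known from contractile smooth muscle, Best1, Aqp7 and Aqp12a were listed at 0.

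The genes of protein synthesis formed the largest block by FPKM: 115 genes of ribosomal proteins and translation factors held 14.2% ± 0.931 (SD, n = 3), at 13.3%, 14.1% and 15.2%. All 76 cytosolic ribosomal protein genes reached 10 FPKM, 75 reached 100 FPKM, and 38 of the 100 highest genes belonged to them. Rpl41 led at 1709, 1732 and 1795 FPKM, with Rplp0 at 1441, 1509 and 1603 FPKM and Rplp1 at 1266, 1225 and 1281 FPKM. Of the 76, 58 were highest in library 3 (69 after TMM scaling), with a median log2 difference of library 3 from library 1 of 0.15 (0.28). These were 76.3% of the 76 (90.8% after TMM scaling), beside 29.8% of all 5378 genes (46.6% after TMM scaling). The median over all 5378 genes was -0.06 (0.06 after TMM scaling). Ribosomal protein genes have many processed copies, and the sources used here do not say how the authors' counting treated them. Of 39 translation factors, 37 reached 1 FPKM. Eef1a1, which brings transfer RNA to the ribosome, had 2399.6, 2412 and 2979 FPKM, and Tpt1, the translationally controlled tumour protein, 1233, 1211 and 1595 FPKM, both highest in library 3.

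Genes of the cytoskeleton and of calcium-binding proteins also stood among the leading genes. Tmsb4x had 3109, 3258 and 2051 FPKM and its relative Tmsb10 1793, 1919 and 2318 FPKM, the former lowest and the latter highest in library 3. S100a6 and S100a4, calcium-binding proteins of the S100 family, had 2310.0, 2639 and 2195 FPKM and 2295, 2125 and 2207 FPKM. Lgals1 had 2023, 2587 and 2632 FPKM, lowest in library 1, and Tpm4, a cytoskeletal tropomyosin, 1161, 1323 and 1214 FPKM. Vim, vimentin, the intermediate filament of mesenchymal cells, was at 1978, 2569.7 and 3377 FPKM, highest in library 3. Of 22 genes of intermediate filaments and tubulins, 14 reached 1 FPKM, and Tubb5 and Tuba1b, the leading tubulins, had 475 ± 31.3 FPKM and 251 ± 30.3 FPKM. Chaperone and secretory pathway genes reached 1 FPKM in 32 of 32 cases and 100 FPKM in 28, with Ppia, a prolyl isomerase, at 856 ± 35.4 FPKM and Ubb, a ubiquitin gene, at 743 ± 61.1 FPKM. Redox and iron genes reached 1 FPKM in 35 of 35 cases, with Txn1, thioredoxin, at 718 ± 48.5 FPKM, Gpx3, a secreted glutathione peroxidase, at 632 ± 127 FPKM and Prdx5, a peroxiredoxin, at 597 ± 124 FPKM.

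Glycolysis was expressed nearly throughout, 23 of 28 genes at 1 FPKM or more and 10 at 100 or more. Gapdh had 1363, 1563 and 1336 FPKM, Ldha, which makes lactate, 876, 1145 and 989 FPKM and Eno1 824, 926 and 818 FPKM, with Aldoa at 700.2 ± 51.0 FPKM and Tpi1 at 649 ± 77.7 FPKM. Each of these 5 was highest in library 2, as were 14 of 23 members (13 after TMM scaling). These were 60.9% of the members (56.5% after TMM scaling), beside 30.4% of all 5378 genes (28.4% after TMM scaling). The iron storage genes Ftl1 and Fth1 had 854 ± 103 FPKM and 675 ± 23.8 FPKM. Proliferation genes were all present, 37 of 37 at 1 FPKM or more, though 1 reached 100 FPKM. That 1 was Cdkn1a, the cell cycle inhibitor p21, at 108, 102 and 97.6 FPKM. Cdk4 was at 69.1, 79.6 and 90.5 FPKM, the replication clamp Pcna at 70.7, 63.7 and 42.5 FPKM, Ccnd3, a cyclin of the growth phase, at 53.5, 53.2 and 44.04 FPKM and the mitotic kinase Cdk1 at 40.6, 40.9 and 38.04 FPKM. Of 26 genes of the list, 17 were highest in library 2 (18 after TMM scaling), beside 30.4% of all 5378 genes (28.4% after TMM scaling).

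Genes of bone and cartilage are known to be switched on by smooth muscle when vessels calcify. The list of such genes, which also holds inhibitors of calcification and phosphate transporters, had 11 of 26 at 1 FPKM or more, beside 59.8% of the whole table. The bone genes Sp7, Alpl, Bglap and Ibsp and the cartilage genes Col2a1, Col10a1 and Acan had means below 1 FPKM. Slc20a2, Msx1, Sox9, Runx2 and Msx2 had means of 11.7, 9.27, 6.37, 3.19 and 1.57 FPKM, and Bmp2 had 25.3, 9.31 and 4.91 FPKM. These were named after their values were seen. Slc20a1, a phosphate transporter, had 225, 186 and 68.9 FPKM, and Mgp, matrix Gla protein, an inhibitor of calcification, 158, 243 and 17.7 FPKM, a 13.7-fold range with library 3 lowest. The mean of Mgp went from 139.6 FPKM to 87.9 FPKM without library 2. Tnfrsf11b, the decoy receptor osteoprotegerin, had 134, 98.9 and 24.9 FPKM, Spp1, osteopontin, 40.7, 40.6 and 17.8 FPKM and Enpp1, which makes pyrophosphate, 16.2, 14.8 and 9.59 FPKM. All 7 members of at least 10 FPKM were lower in library 3 than in library 1, with a median log2 difference of -1.71 (-1.59 after TMM scaling). Of all 5378 genes of that level, 3225 were lower in library 3 (2143 after TMM scaling), with a median of -0.06 (0.06).

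The label of smooth muscle was checked against markers. Of 15 smooth muscle markers, Tagln, Acta2, Tpm2, Myl9, Cald1, Cnn1, Tnc, Flna and Ccl2 were at 100 FPKM or more on average, while Myh11, Lmod1 and Smtn lay between 21.9 and 45.0 FPKM and Mylk, Myocd and Des lower. Tnc, Flna and Ccl2 are made by many cell types and do not define smooth muscle on their own. Markers of other cells were mostly at or near 0. Endothelial markers reached 1 FPKM in 2 of 15 genes and summed to 18.4 to 21.3 FPKM per library, most of it Egfl7 (17.4, 15.8 and 15.8 FPKM), with Cdh5, the endothelial cadherin, at 0, 1 and 0 counts and Tie1 listed at 0. The mean of Flt1, the other one, was 1.64 FPKM and became 0.981 FPKM without library 2. Leukocyte markers summed to 14.3 to 25.9 FPKM and epithelial and mesothelial markers to 4.88 to 10.1 FPKM, where Krt5 was listed at 0 and Msln was highest at 4.81 FPKM.

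Fibroblast and adventitial markers stood apart from these, with 11 of 17 at 1 FPKM or more and a sum of 1190 to 1277 FPKM. They were led by Dcn, Lum and Mfap5, a microfibril protein at 128, 169.9 and 298 FPKM, with the actin-severing protein Gsn at 92.3 ± 6.06 FPKM and Pdgfra at 63.9 ± 15.9 FPKM. Cd34, a defining surface marker of adventitial fibroblasts and named after its values were seen, had 0.0715, 0.0346 and 0.284 FPKM, from 2, 1 and 9 counts. Has1, Clec3b, Ly6c, Tcf21 and Gli1 also had means below 1 FPKM. Other members were expressed: Fbln1, Dpep1 and Scara5 had means of 17.1, 10.2 and 5.09 FPKM. Dpt, Col14a1 and Pi16 had means of 4.19, 3.53 and 2.52 FPKM. Matrix genes of that list are also made by cultured smooth muscle, so the list does not separate the cell types. Pericyte markers reached 1 FPKM in 5 of 11 genes and were led by Ndufa4l2, a mitochondrial protein, at 14.3, 35.8 and 60.4 FPKM. Striated muscle markers reached it in 5 of 22 (Acta1, skeletal actin, highest at 17.3 ± 3.31 FPKM, Nkx2-5 listed at 0), adipocyte markers in 2 of 10 (Lpl, lipoprotein lipase, at 43.9, 15.7 and 18.1 FPKM, Retn listed at 0) and neural and glial markers in 4 of 13 (Tubb3, a tubulin, at 25.4, 37.3 and 86.3 FPKM, Sox10 listed at 0). The mean of Lpl went from 25.9 FPKM to 16.9 FPKM without library 1 and that of Tubb3 from 49.7 FPKM to 31.4 FPKM without library 3.

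The 3 libraries were alike in rank but not interchangeable. Over the 11142 genes of at least 1 FPKM, Spearman's rho across genes was 0.984 for libraries 1 and 2, 0.975 for 2 and 3 and 0.961 for 1 and 3, a description in which genes are not independent replicates. The median absolute log2 difference was 0.12, 0.16 and 0.18 in the same order, on FPKM + 1. Genes that differed more than 2-fold numbered 122, 262 and 484, so libraries 1 and 3 lay farthest apart. Their counts differed by a chi-square of 25.7, 68.0 and 106 per degree of freedom, far above sampling noise, which would give about 1. Among genes of at least 10 FPKM the median coefficient of variation was 8.16%, where counting error alone gave a median of 2.78%, and 3230 of 5378 genes were under 10%. A coefficient over 50% was found in 132 genes, of which 84 were highest in library 1, 11 in library 2 and 37 in library 3. Of all 5378 genes, 39.8%, 30.4% and 29.8% were highest in libraries 1, 2 and 3. Library 3 also had the largest total count and the fewest genes at 1 FPKM, 10923 against 11285 in library 1 and 11098 in library 2. The part of these differences in the results above was not tested.

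**Figure D5:**
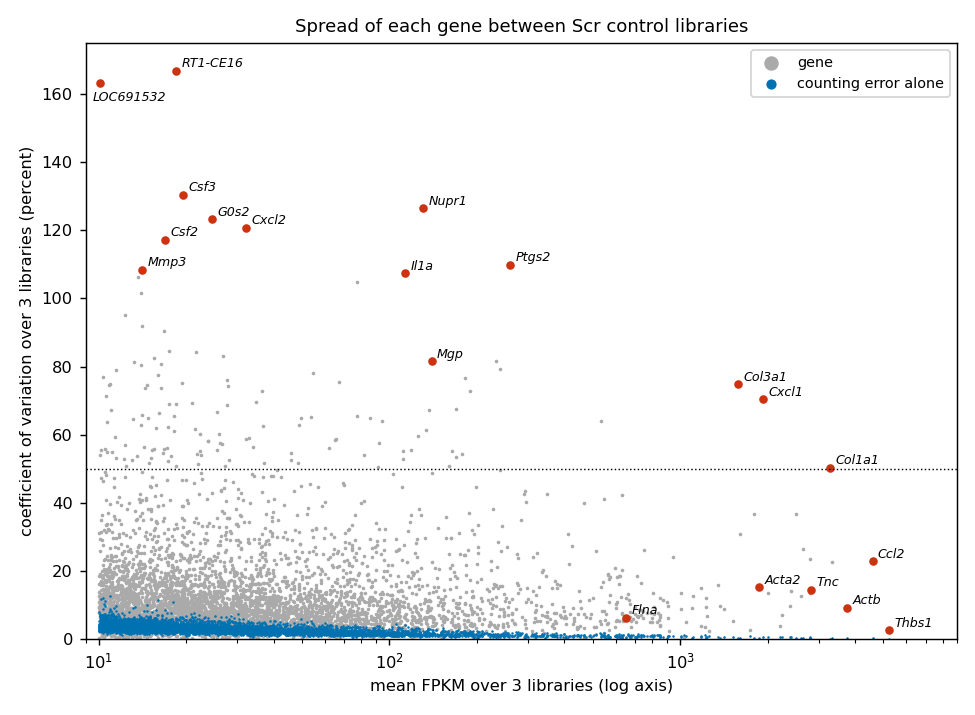
Coefficient of variation (SD as percent of the mean) over the 3 Scr control libraries against mean FPKM (log axis) for 5378 genes of at least 10 FPKM, grey for the measured value and blue for the value that counting error alone gives, with named genes in red and a dotted line at 50%. The median is 8.16% for the measured values and 2.78% for counting error alone, and among the most abundant genes Col3a1 (74.8%) and Cxcl1 (70.4%) lie high and Thbs1 (2.57%) lies low.

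The 10 genes with the largest coefficients fell into separate patterns. The cytokines Csf3, Csf2, Cxcl2 and Il1a, the metalloproteinase Mmp3 and the prostaglandin synthase Ptgs2, known as COX-2, were highest in library 1 and lowest in library 3. Csf3 had 48.8, 7.89 and 1.99 FPKM, Csf2 39.6, 8.64 and 2.59 FPKM and Il1a 248, 79.7 and 11.9 FPKM. Ptgs2 stood at 586, 141 and 53.5 FPKM, a 10.96-fold range, and Mmp3 at 31.7, 6.42 and 4.20 FPKM. In the opposite order, Nupr1, a stress-induced chromatin protein, had 32.3, 38.3 and 322 FPKM, and G0s2, a lipase inhibitor, 2.78, 11.7 and 58.8 FPKM. The remaining 2 were high in a single library: RT1-CE16, a major histocompatibility class I gene, at 0.355, 1.03 and 54.01 FPKM, and LOC691532 at 29.1, 0.556 and 0.600 FPKM. Class I genes have near-identical copies between which reads can be split, so the RT1-CE16 value is uncertain. The mean of each of these 10 genes moved more than 1.5-fold when 1 library was left out. Without library 1 the mean was 4.94 FPKM for Csf3, 5.61 for Csf2, 10.1 for Cxcl2, 45.8 for Il1a, 5.31 for Mmp3, 97.2 for Ptgs2 and 0.578 for LOC691532. Without library 3 it was 35.3 FPKM for Nupr1, 7.25 for G0s2 and 0.693 for RT1-CE16. At the other end, Sod1, the cytosolic superoxide dismutase, had 202.2, 201.6 and 201.6 FPKM, a coefficient of 0.174%. This is below the 2.02% that counting error alone gives, so it does not mark Sod1 as unusually stable.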

How the data were processed

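Polyadenylated RNA was sequenced, and the authors deposited, for each gene symbol, unnormalized whole-number counts in 1 table and FPKM values in another. Of 50103 deposited FPKM values above 0, 100% equalled the count over 1 length per gene and the library total (relative tolerance 1e-06). For the aligner, counter, strand setting and genome build the entry is: not given in the sources used here. Only the columns of the 3 Scr control libraries were read. With 1 group there is no contrast, so no test was run and every value is a description with the SD over 3 libraries. The members and the 36 gene lists (1445 of 1522 listed genes in the table) were chosen with earlier results of these data known. A gene may stand in several lists.

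Named genes were the 30 of highest mean FPKM, the 5 highest of each list that reached 1 FPKM (6 in receptor and channel lists), the 10 of largest coefficient of variation at 10 FPKM or more, the markers Tnc, Flna, Acta2 and Ccl2, and defining markers of other cells. A few genes that this rule names are not reported here, though list counts and totals include them. Counting error was taken as 1 over the square root of the mean count. TMM factors came from edgeR 4.0.16 in R 4.3.3, and other values from pandas 2.3.3 and numpy 2.4.6 in Python 3.11.15. Simulated counts were used to check only the coefficient of variation beyond counting error and the call of the highest library. Promoter windows came from RefSeq (GRCr8), in which 16598 of 18631 symbols were found. Miat and mitochondrially encoded genes are not analysed here. The alternatives were other thresholds, units and scalings and leaving out each library.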

Additional observations from a re-analysis of the deposited data

How the results depend on the processing

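With only 3 libraries of 1 group, each SD rests on 3 values and no difference between libraries can be tested. No paired analysis was possible because a single group is described. The number of genes at 1 FPKM or more (11142) ran from 7637 at 5 FPKM to 12597 at 1 CPM over the alternatives, and from 11043 to 11199 when a library was left out. As a share of counts in place of summed FPKM, the 10 highest genes held 11.6%, the 100 highest 27.5%, matrix genes 14.5%, chemokines and cytokines 1.65%, contractile and actin genes 6.24%, ribosomal protein genes 3.44%, receptors 1.90% and channels 1.08%, each moved by more than the SD. With ribosomal protein genes taken out of the total, contractile and actin genes held 9.65%, receptors 1.05% and channels 1.13%, above the SD. Matrix (8.48%) and chemokine genes (3.52%) stayed within it. All these shares rose in nearly the same proportion. Staying within the SD therefore reflects the larger spread of matrix and chemokine shares between libraries, not a smaller change. The 132 genes over 50% in coefficient of variation became 468 with genes of at least 1 FPKM, 131 with TMM scaling, and 50 to 213 without 1 library, 50 without library 3 and 213 without library 2. Of the 200 named genes, the mean of 22 moved over 1.5-fold without 1 library. With TMM scaling no mean moved by more than its SD. The TMM factors were 1.04, 1.01 and 0.955, however, so a mean over the 3 libraries could hardly move. That result therefore says nothing about comparisons between libraries. Depth limits the genes of a few counts, such as Des, Eln, Ednra and Kcnma1.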

Other observations

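The genes below were chosen after their values were seen and lie outside the rule for named genes. F3, tissue factor, which starts blood coagulation, was in no list and ranked 66 at 805, 798 and 594 FPKM (732 ± 119.6 FPKM, SD, n = 3), lowest in library 3. Ifitm3, an interferon-induced membrane protein, was in no list either and ranked 94 at 535, 674 and 667 FPKM, lowest in library 1. Ptges, which converts the product of Ptgs2 into prostaglandin E, had 169, 44.8 and 17.4 FPKM, and the Ptgs2 to Ptges ratio on the FPKM scale was 3.47, 3.14 and 3.07 while Ptgs2 itself ranged 10.96-fold. Both were highest in library 1 and lowest in library 3. Inhba, a subunit of the growth factor activin, had 223, 146 and 40.3 FPKM in the same order.

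The Y-linked genes Eif2s3y, at 26.2, 30.5 and 30.6 FPKM, and Kdm5d, at 4.22, 4.06 and 4.92 FPKM, were present in all 3 libraries. Eif2s3y had a range of 1.17-fold and Kdm5d of 1.21-fold. The labels do not state the sex of the animals.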
